A study of Mus musculus with 6 samples.

Results

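Cluster 1 is the group of nuclei that carries the cluster number 1 in the deposited annotation of the study. It held 8110 of 38154 nuclei of mouse jejunal organoids, taken from all 6 samples. Organoids are epithelial cultures that grow from the stem cells of intestinal crypts, and per the labels they came from the jejunum of C57BL/6 mice of 8 to 12 weeks. They were grown in medium conditioned by quiescent mouse fibroblasts (QCM, 3 samples) or by senescent mouse fibroblasts (SCM, 3 samples). Per the methods of the study, the fibroblasts were mouse embryonic fibroblasts, and senescence was induced by irradiation or doxorubicin and quiescence by low serum. Which senescence treatment each SCM sample had is not given in the sources used here. The study's general statement on statistics is that replicates stand for mice unless noted, but the labels of these libraries name no mouse. P-values measure the spread between these samples, which may be technical in part. The study asked what factors released by senescent fibroblasts do to intestinal stem cells and their progeny. Cluster 1 had been labelled by a mixture of mature markers: Apoc3, Apoa4, Reg3b, Spink1, Defa17 and Gsta2.

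The intestinal epithelium is renewed by crypt stem cells that carry Lgr5. Their progeny become absorptive enterocytes, which make apolipoproteins and brush border enzymes, or secretory cells. Of the secretory cells, Paneth cells make alpha defensins and lysozyme, goblet cells make mucin, and enteroendocrine cells make peptide hormones. Ribosomal protein genes, whose products build the ribosome, are expressed in every cell and their mRNAs are found mainly in the cytoplasm. Malat1 and Neat1 are long noncoding RNAs that stay in the nucleus.

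The cluster took 1639 of 3791, 1086 of 7930 and 2219 of 10144 nuclei of QCM replicates 1, 2 and 3, respectively. Among the SCM samples it took 86 of 430, 809 of 5026 and 2271 of 10833 nuclei. The UMIs (unique molecular identifiers, each counting 1 captured RNA molecule) of cluster 1 ranged from 161906 in SCM replicate 1 to 14100192 in QCM replicate 1, so that values of SCM replicate 1 are the least precise. Cell barcodes were shared between libraries in 660 nuclei. SCM replicate 1 shared 175 of its 430 barcodes with QCM replicate 1, whereas no other pair of libraries shared more than 36. Of the 86 cluster 1 nuclei of SCM replicate 1, 38 had such a barcode, and 22 of the 175 shared barcodes stood in cluster 1 in both libraries. Results were therefore also computed without nuclei with shared barcodes and without SCM replicate 1.

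The nuclei of cluster 1 were shallower than the other nuclei of the same sample in all 6 samples. A cluster 1 nucleus had a median of 7982, 1845 and 1334 UMIs in the 3 QCM samples, and the other nuclei had 8688, 2378 and 1657. In the SCM replicates the median was 899.5, 2003 and 1592, against 4606, 2652 and 2067. The largest gap was in SCM replicate 1, where 58.1% of the cluster 1 nuclei had fewer than 1000 UMIs. The median mitochondrial share was higher in cluster 1 than elsewhere in all 6 samples, at 1.14%, 2.99% and 6.58% against 0.857%, 1.71% and 3.16% in QCM, and at 1.16%, 3.76% and 5.16% against 0.686%, 2.05% and 3.26% in SCM. The part of depth and of mitochondrial share in the levels given next was not tested.

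Cluster 1 held more mRNA of ribosomal proteins than the other nuclei. Their share of all UMIs was 20.7%, 8.30% and 16.4% in cluster 1 of the QCM samples (replicates 1, 2 and 3), against 12.2%, 4.96% and 9.91% in the other nuclei. It was 9.27%, 5.07% and 11.2% in cluster 1 of SCM replicates 1, 2 and 3, against 4.16%, 2.53% and 7.16%. The share was higher in cluster 1 in every sample, by 1.56-fold in SCM replicate 3 to 2.23-fold in SCM replicate 1, and the 3 QCM ratios lay between 1.66 and 1.69. Of the 81 ribosomal protein genes, 80 were measured, which here means a mean of at least 5 CPM in cluster 1 or in the other nuclei. CPM is the UMI count of a gene scaled to a common total of all genes, within each group of nuclei of a sample. All 80 had a ratio of cluster 1 to the other nuclei above 1 in each of the 6 samples, while 11.4% of the 12363 measured genes did. Clusters were made from the expression of these nuclei, so levels against the other nuclei are a description and were not tested.

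**Figure D1:**
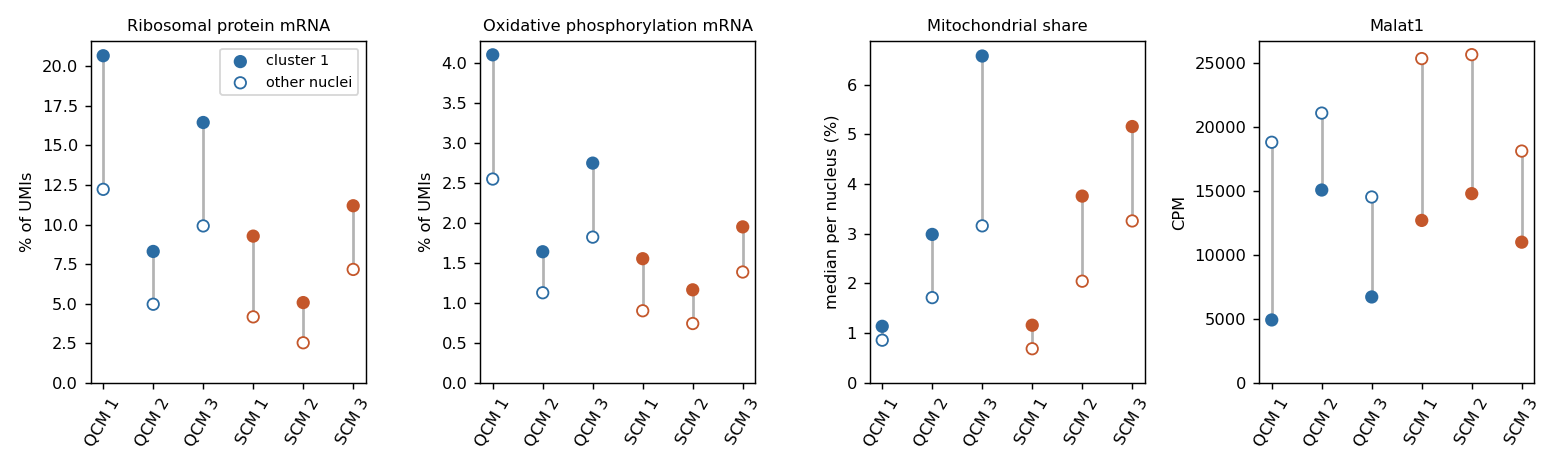
Share of UMIs on ribosomal protein genes and on nuclear-encoded oxidative phosphorylation genes (% of UMIs), median mitochondrial share per nucleus (%) and Malat1 level (CPM) in each of the 6 samples. Filled points are cluster 1 and open points the remaining nuclei of that sample, joined by a line, with QCM in blue and SCM in orange. In every sample the first 3 quantities are higher and Malat1 is lower in cluster 1.

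Ribosomal protein genes also made up much of the list of leading single genes. Among genes of at least 50 CPM with a ratio above 1 in all samples, the 15 with the highest mean log2 ratio held Rpl32, Rps12, Rpl34, Rps4x, Rpl12, Rpl27 and Rplp1. Rpl32, a protein of the large subunit, was at 3598, 1818 and 3620 CPM in cluster 1 of QCM. In cluster 1 of SCM it was at 1507, 1060 and 2952 CPM. In the other nuclei it was at 2112, 1031 and 2111 CPM in QCM and at 557, 460 and 1795 CPM in SCM. Its log2 ratio, computed on CPM plus 1, was 0.95 ± 0.29 (SD, n = 6 samples), or 0.86 without SCM replicate 1. Rps12, of the small subunit, had a log2 ratio of 0.92 ± 0.27 and Rplp1, a protein of the ribosomal stalk, one of 0.89 ± 0.27. The 80 ribosomal protein genes together had mean log2 ratios from 0.68 to 0.95 and a median of 0.83. Among the leading 100 of 865 eligible genes, 61 were ribosomal protein genes.

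The other leaders were of several kinds. Atp5k and Atp5e, subunits of the mitochondrial ATP synthase, had log2 ratios of 0.94 ± 0.26 and 0.90 ± 0.22 (SD, n = 6). Tpt1, the translationally controlled tumour protein, and Tmsb10, an actin-binding thymosin, had ratios of 0.94 ± 0.31 and 0.90 ± 0.24. Rps27rt, a gene close in sequence to a ribosomal protein gene whose reads may be split with it, and Ddt, D-dopachrome tautomerase, had 0.93 ± 0.42 and 0.92 ± 0.41. Ctrb1, a chymotrypsinogen, and Spink1, a trypsin inhibitor, stood at the top of these 15 with 1.00 ± 1.16 and 0.96 ± 0.79, and both places rested on SCM replicate 1, where 32 and 9 UMIs were counted in cluster 1. Without SCM replicate 1 the log2 ratio was 0.53 for Ctrb1 and 0.65 for Spink1, and between 0.75 and 0.86 for the other 13 leaders.

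**Figure D2:**
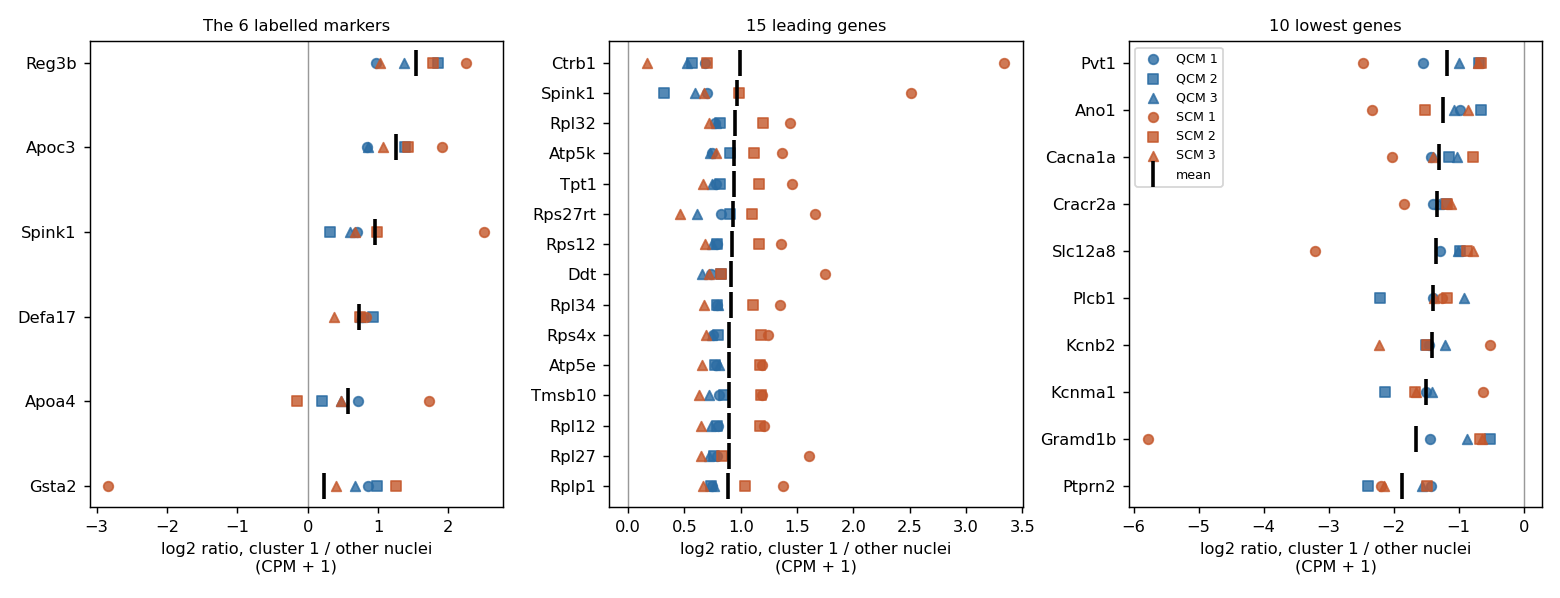
Log2 ratio of the level in cluster 1 to the level of the remaining nuclei of each sample (CPM plus 1) for the 6 labelled markers, the 15 leading genes and the 10 lowest genes. Points are samples (QCM blue, SCM orange, symbols for replicates 1 to 3) and the bar is the mean. The ribosomal protein genes lie close together, with means from 0.89 to 0.95, whereas SCM replicate 1 stands far from the others for Ctrb1, Spink1, Gsta2 and Gramd1b.

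mRNAs of ribosomal proteins share a known sequence feature, a run of pyrimidines (C or T) at the start of the transcript through which their translation is controlled. The 30 bases around annotated start sites (15 before and 15 from the start on) were therefore searched for at least 6 C or T in a row on the transcribed strand, in RefSeq start sites of GRCm38.p6. Such a run was found in 37 of the 60 ribosomal protein genes that the RefSeq table holds (61.7%), and in 23 of 71 oxidative phosphorylation genes (32.4%). Of all measured genes in the table, 33.0% had one, and 2 of the 6 lowest genes it holds, Plcb1 and Slc12a8, did. Windows of 4 leading genes and of Kcnma1, one of the lowest genes, are shown with the run in capitals.

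Rpl34 (chr3:130730323-130730352, minus strand): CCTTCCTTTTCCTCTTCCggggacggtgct

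Rpl12 (chr2:32961697-32961726, plus strand): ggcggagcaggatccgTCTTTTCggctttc

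Rps12 (chr10:23787195-23787224, minus strand): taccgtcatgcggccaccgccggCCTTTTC

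Rpl27 (chr11:101442230-101442259, plus strand): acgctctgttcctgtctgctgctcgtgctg

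Kcnma1 (chr14:24004191-24004220, minus strand): agtagcagcaacatggctgttgatgggtgt

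Rpl34 has a further annotated start. Rpl27 holds no such run in its window although it was among the leaders, and a run in the letters is a description, not evidence of control.

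Nuclear-encoded genes of oxidative phosphorylation, the mitochondrial chain that makes ATP, were higher in cluster 1 as well. They took 4.10%, 1.64% and 2.75% of UMIs in cluster 1 of QCM, against 2.55%, 1.13% and 1.82% in the other nuclei. In the SCM replicates they took 1.55%, 1.16% and 1.95% in cluster 1 and 0.901%, 0.742% and 1.39% elsewhere. Of 83 measured genes, 67 were above the other nuclei in all 6 samples and 2 were below in all 6, where 11.4% and 36.9% of all measured genes were. Cox4i1, a cytochrome c oxidase subunit, had a log2 ratio of 0.73 ± 0.19 and Atp5b, an ATP synthase subunit, one of 0.50 ± 0.10 (SD, n = 6).

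Malat1 and Neat1, noncoding RNAs kept in the nucleus, were lower in cluster 1 in every sample. Malat1 was at 4919, 15090 and 6718 CPM in cluster 1 of QCM, against 18829, 21113 and 14544 CPM in the other nuclei. In the SCM replicates it was at 12711, 14806 and 11007 CPM, against 25378, 25688 and 18140 CPM. Its log2 ratio was -1.01 ± 0.51 (SD, n = 6), and that of Neat1 was -0.95 ± 0.39. Malat1 was lowest in cluster 1 of all clusters with at least 10 nuclei in 5 of 6 samples, and so was Neat1. Kcnq1ot1, a long RNA of the imprinted Kcnq1 locus, had a log2 ratio of -0.64 ± 0.56, whereas Gas5, the host of small nucleolar RNAs, was higher at 0.58 ± 0.30.

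The 10 lowest genes by the fixed rule were Ptprn2, Gramd1b, Kcnma1, Kcnb2, Plcb1, Slc12a8, Cracr2a, Cacna1a, Ano1 and Pvt1. Ptprn2, a receptor-type phosphatase of secretory granules, was at 27.3, 32.2 and 45.7 CPM in cluster 1 of the QCM replicates and at 18.5, 46.1 and 32.7 CPM in the SCM replicates. In the other nuclei it was between 74.96 and 172.7 CPM, and the log2 ratio was -1.87 ± 0.42 (SD, n = 6). The rule selected it for that ratio. The potassium channel genes Kcnma1 and Kcnb2 had ratios of -1.50 ± 0.49 and -1.40 ± 0.55. Gramd1b had no UMI in cluster 1 of SCM replicate 1, and its mean ratio moved from -1.65 to -0.83 without that sample.

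These lists differed in the length of the genes. The median span from start to end of the gene was 3.23 kb for the 15 leading genes, 23.6 kb for all measured genes and 296 kb for the 10 lowest. Across measured genes the median log2 ratio was between -0.01 and 0.15 in the 6 samples for the 943 genes of up to 3 kb. It was between -0.32 and -1.11 for the 356 genes longer than 300 kb. In each sample every bin above 10 kb had a lower median than both bins under 10 kb, and the gap was largest in QCM replicate 1, with 0.04 for the shortest genes and -1.11 for the longest. In SCM replicate 1 the longest bin, at -0.38, was not below that of 100 to 300 kb, at -0.43. Without the ribosomal protein and oxidative phosphorylation genes, the mean over samples of the median was -0.003 for genes up to 3 kb and -0.35 for genes of 30 to 100 kb. Of all measured genes, 36.9% were below the other nuclei in all 6 samples.

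**Figure D3:**
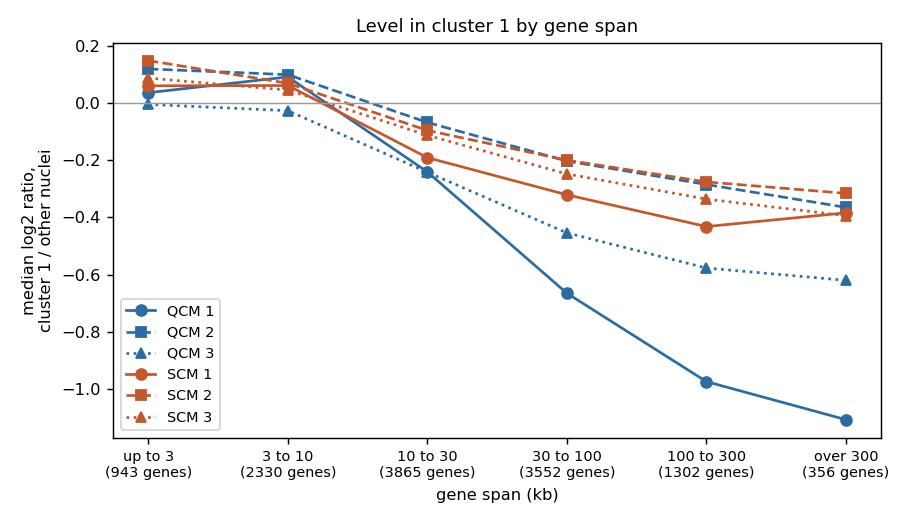
Median log2 ratio of cluster 1 to the other nuclei by gene span (kb, from start to end of the annotated gene), 1 line per sample, with the number of measured genes under each bin. In all samples the medians go from between -0.03 and 0.15 for genes of up to 10 kb to between -0.32 and -1.11 for genes over 300 kb.

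The mature markers by which the cluster had been labelled had mean log2 ratios from 0.23 to 1.54, a wider range than the ribosomal protein genes, and their levels depended on the sample. Apoa4, an apolipoprotein of enterocytes, was at 945, 29.98 and 88.5 CPM in cluster 1 of QCM, against 577, 25.9 and 63.5 CPM in the other nuclei. In the SCM replicates it was at 80.3, 40.2 and 70.8 CPM, against 23.5, 44.9 and 51.0 CPM. Its log2 ratio was 0.57 ± 0.64 (SD, n = 6), and in SCM replicate 2 it was below 0. The level in QCM replicate 1 was over that of each other sample in cluster 1 and elsewhere.

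Apoc3, an apolipoprotein that slows the clearance of fat particles, was at 159.6, 10.1 and 24.7 CPM in cluster 1 of QCM and at 12.4, 8.04 and 15.5 CPM in SCM. Its log2 ratio to the other nuclei was 1.25 ± 0.41, and 0.66 when nuclei with fewer than 1000 UMIs were left out. Reg3b, an antibacterial lectin, had the highest ratio of the 6 at 1.54 ± 0.51, or 1.40 without SCM replicate 1. Its levels lay between 2.67 and 18.7 CPM. Defa17, a Paneth cell defensin, was at 227, 7.50 and 41.7 CPM in QCM and at 185, 8.04 and 7.03 CPM in SCM, and had a ratio of 0.73 ± 0.19. Gsta2, a glutathione transferase, had no UMI in cluster 1 of SCM replicate 1. Its log2 ratio was 0.23 ± 1.53 over all samples and 0.84 ± 0.32 (SD, n = 5) without SCM replicate 1. Alpha defensin genes are near-identical copies whose reads may be split between them.

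Summed over the 6 markers, the ratio of cluster 1 to the other nuclei was 1.67, 1.61 and 1.55 in QCM, and 2.33, 1.35 and 1.53 in SCM. For the ribosomal protein genes it was 1.69, 1.67, 1.66, 2.23, 2.00 and 1.56 in the same order. Of the 6 markers, 4 were above the other nuclei in all 6 samples, where 11.4% of all measured genes were. The cluster had been labelled by these genes, so that count is a description and no support for the label. Whether these markers would be raised at an equal ribosomal protein share was not tested.

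Marker lists of the intestinal cell types gave no single identity. The counts are to be read against all measured genes, of which 11.4% were above and 36.9% below the other nuclei in all 6 samples. Of 17 measured enterocyte markers, 5 were above the other nuclei in all 6 samples and 1 was below, with a median log2 ratio of -0.04. Fabp1, a fatty acid-binding protein, had 0.85 ± 0.35 (SD, n = 6), while the brush border enzymes Mgam and Sis had -0.19 ± 0.30 and -0.06 ± 0.24. None of 24 measured brush border genes was above the other nuclei in all samples and 5 were below, a smaller share than that of all genes. Of 9 Paneth markers, 5 were above and 1 below, with a median of 0.53. Itln1, a lectin, had 0.56 ± 0.20, and the defensin Defa24 had 0.69 ± 0.28. Of 9 goblet markers, 3 were above and 2 below, among them Tff3, a trefoil peptide, at 0.74 ± 0.26, while the mucus protein Fcgbp had -0.30 ± 0.48. Of 13 enteroendocrine markers, 4 were above and none below, with Cck, a hormone, at 0.80 ± 1.06, an SD above the mean.

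Stem cell markers lay at the median of all genes. Of 14 measured stem markers, 7 were below the other nuclei in all 6 samples, where 36.9% of all measured genes were, and 1, Hmgb2, was above. Their median log2 ratio was -0.31, as was that of all measured genes. Lgr5 was at 116.8, 532 and 198.5 CPM in cluster 1 of QCM and at 500.3, 804 and 371 CPM in SCM, with a ratio of -0.36 ± 0.36 (SD, n = 6). Hmgb2, a chromatin protein of dividing cells, had a ratio of 0.64 ± 0.13. Of 11 measured YAP target genes, 7 were below in all samples and none above, with a median of -0.59, and Tead1, the DNA-binding partner of YAP, had -0.54 ± 0.32.

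Markers of cells that should not be in an epithelial culture summed to low levels. Summed over 12 mesenchymal markers, cluster 1 had 0 to 23.0 CPM. The 9 immune markers summed to between 0.441 and 7.18 CPM and the 6 endothelial markers to between 3.53 and 18.5 CPM. None of the endothelial or immune markers reached 5 CPM on average. The 12 markers of tuft cells, which are epithelial, summed to between 23.5 and 32.2 CPM, lower than in the other nuclei in every sample.

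Among the 15 clusters, cluster 1 had a mean ribosomal protein share of 11.8% ± 5.74 of UMIs (SD, n = 6 samples), and cluster 13 one of 11.6% ± 4.65 (SD, n = 4 samples), a gap far below the spread. Over these unlike samples the means of Rpl32 and Rps12 were 2605 and 3000 CPM in cluster 13 and 2426 and 2866 CPM in cluster 1, which does not rank the clusters. Within samples, cluster 1 ranked first by ribosomal protein share in 5 of 6 samples, and second in SCM replicate 3 behind cluster 4, at 11.2% against 11.5%. Cluster 1 was thus above cluster 13 in each of the 4 samples that held at least 10 nuclei of both. In QCM replicate 2, where cluster 13 came next, cluster 1 was at 8.30% against 7.48%. Its mean mitochondrial share was 3.46%, the highest of the 15, against 2.83% in cluster 13. Its mean Malat1 level was the lowest, at 10875 CPM, against 11660 CPM in cluster 13. Its mean oxidative phosphorylation share was 2.19%, against 2.27% there, again over 6 and 4 samples, so this order does not rank the 2 clusters. The 6 markers peaked elsewhere in most cases. Apoa4 was highest in cluster 8, at 370.0 CPM against 209 CPM in cluster 1, and was not highest in cluster 1 in any sample. Defa17 had its highest mean in cluster 6, at 82.4 CPM against 79.5 CPM, and was highest in cluster 1 in SCM replicate 1 alone. Reg3b was highest in cluster 1 in 5 of 6 samples, with a mean of 7.64 CPM. These 5 include SCM replicate 1, where 1.16% of the 86 cluster 1 nuclei held a Reg3b UMI and 9 clusters were ranked. These means weigh the samples equally, and QCM replicate 1 had the highest level of each of the 6 markers in cluster 1.

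**Figure D4:**
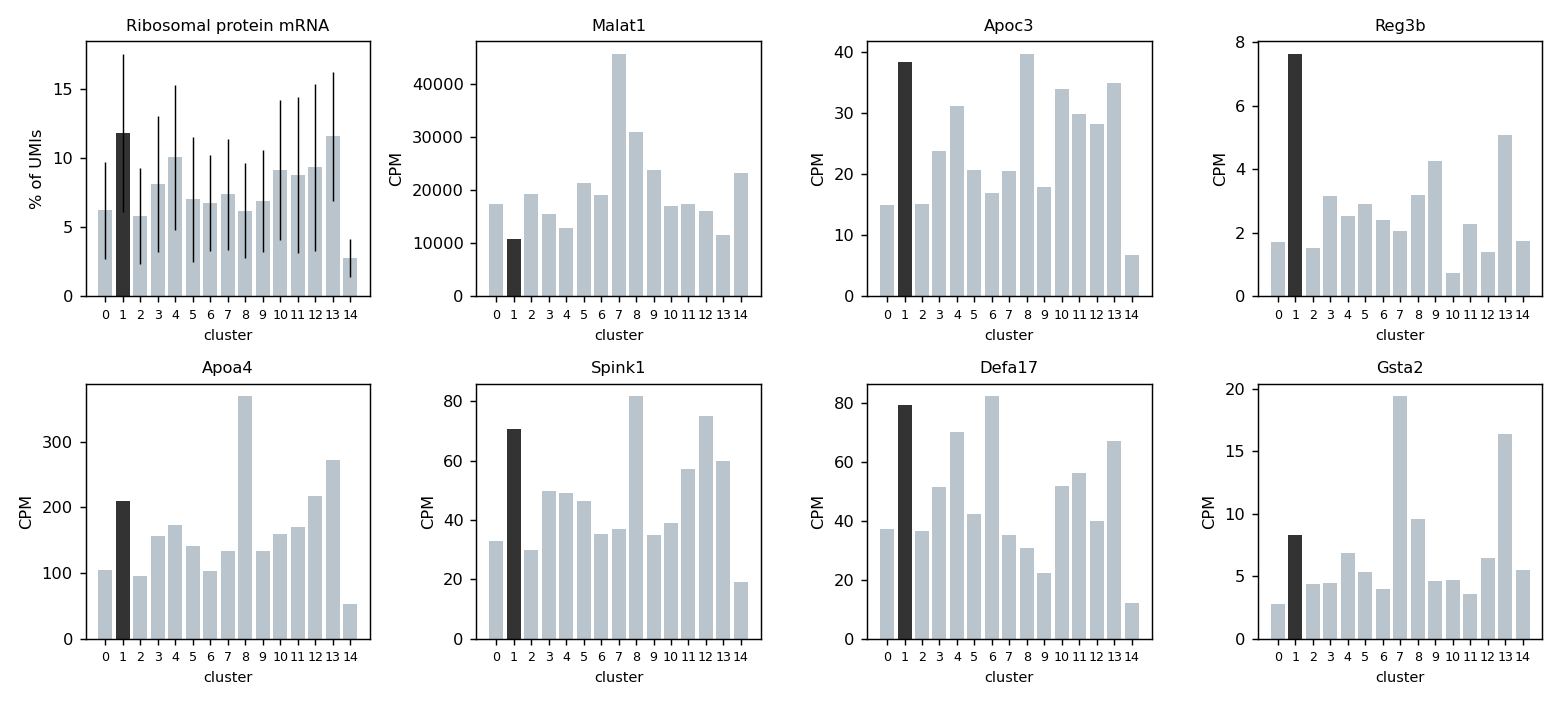
Ribosomal protein share (% of UMIs, with SD over samples), and levels (CPM) of Malat1 and the 6 labelled markers in the 15 clusters, as the mean over samples with at least 10 nuclei of a cluster. Cluster 1 is dark. Its mean ribosomal protein share and Malat1 level are close to those of cluster 13, whose means cover 4 samples in place of 6. Within each of those 4 samples the ribosomal protein share of cluster 1 is above that of cluster 13. Apoa4 peaks in cluster 8 and Defa17 in cluster 6.

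In single nuclei the markers were found inside and outside the cluster. Each nucleus was thinned at random to 500 UMIs, which left out 1 nucleus of cluster 1. In QCM replicate 1, 37.4% of the cluster 1 nuclei (Wilson 95% confidence interval 35.1 to 39.8) then held an Apoa4 UMI, against 28.1% (26.3 to 30.1) of the other nuclei and 26.6% (21.9 to 31.8) of cluster 0. In clusters 8 and 4 of the same sample the shares were 36.4% (29.8 to 43.5) and 34.3% (28.6 to 40.4). These shares are a description, with no test. Of the 42 nuclei of cluster 11, where the tuft cell marker Dclk1 was highest, 26.2% (15.3 to 41.1) held one. The median depths were 7982 UMIs in cluster 1, 8688 in the other nuclei, 6683 in cluster 0 and 8591.5 in cluster 11. Without thinning, 99.8% of the cluster 1 nuclei and all of the cluster 11 nuclei of that sample held one. In the other samples, between 1.47% and 7.06% of the cluster 1 nuclei and between 1.24% and 3.02% of the other nuclei held an Apoa4 UMI after thinning. The intervals cover counting error only.

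Defa17 was found after thinning in 11.4% of the cluster 1 nuclei of QCM replicate 1 (10.0 to 13.0), against 7.90% (6.83 to 9.12) in the other nuclei, 19.0% (9.98 to 33.3) in cluster 11 and 16.5% (11.6 to 22.9) in cluster 6. In QCM replicate 3 the share was 2.21% (1.67 to 2.91) in cluster 1, 1.65% (1.39 to 1.96) in the other nuclei and 1.49% (0.410 to 5.28) in cluster 11. In QCM replicate 2, SCM replicate 2 and SCM replicate 3 no cluster 11 nucleus (0 of 70, 0 of 30 and 0 of 86) held a Defa17 UMI after thinning, which allows shares of up to 5.20%, 11.4% and 4.28% (Wilson) at that depth. Without thinning the shares there were 0%, 3.33% and 1.16%. In SCM replicate 1 it was found in 17.6% of 85 nuclei (10.996 to 27.1), and in 0.308% of the cluster 1 nuclei and 0.339% of the other nuclei in SCM replicate 3. The unthinned share in cluster 1 was 84.0% in QCM replicate 1 and 27.9% in SCM replicate 1. Malat1 was found in 64.2% of thinned cluster 1 nuclei in QCM replicate 1 and in 89.7% of the others.

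UMIs of enterocyte and antimicrobial markers were also counted in the same nuclei, which does not show that a nucleus expressed both. Without thinning, 92.9% of the cluster 11 nuclei of QCM replicate 1 held a Defa17 UMI too. In QCM replicate 1, Defa17 or Reg3b was found in 14.2% (11.7 to 17.0) of 685 thinned nuclei with Apoc3 or Apoa4, and in 11.01% (9.17 to 13.2) of 954 nuclei without. In QCM replicate 3 the shares were 4.31% (1.85 to 9.69) of 116 nuclei and 2.28% (1.73 to 3.01) of 2103 nuclei. The intervals overlapped in both samples. The other samples had at most 99 nuclei with Apoc3 or Apoa4, and at most 2 of them also held Defa17 or Reg3b.

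Cluster 1 was itself a range. Its nuclei had a median ribosomal protein share of 22.5% in QCM replicate 1, with the middle 90% between 14.7% and 24.5%. In SCM replicate 2 the median was 4.18% and that range 2.19% to 10.5%. It overlapped with the other nuclei, of which between 10.8% and 21.2% per sample lay above the median of cluster 1. The nuclei of each sample were then placed in 3 equal groups by ribosomal protein share. In QCM replicate 3, Malat1 was at 11235, 4468 and 2159 CPM from the lowest to the highest group, and the summed goblet markers at 939, 1649 and 1964 CPM. The summed Paneth markers of the same groups were at 487, 783 and 955 CPM and the enterocyte markers at 3298, 4457 and 4881 CPM, while the stem markers were at 2740, 2030 and 1889 CPM. In all 6 samples Malat1 and the stem markers went down, and the Paneth markers went up, over the 3 groups. The groups differed in depth, with median UMIs of 1706.5, 1189 and 1258 in QCM replicate 3 and of 2514.5, 1759 and 972 in QCM replicate 2, and the part of depth was not tested. The share of ribosomal protein UMIs itself sets part of every other share.

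The first comparison between media was the size of the cluster. Cluster 1 held 43.2% (Wilson 95% confidence interval 41.7 to 44.8), 13.7% (13.0 to 14.5) and 21.9% (21.1 to 22.7) of the nuclei in the 3 QCM samples. It held 20% (16.5 to 24.0), 16.1% (15.1 to 17.1) and 21.0% (20.2 to 21.7) in the SCM replicates. The groups overlapped, and the high value of QCM replicate 1 stood alone. The mean was 26.3% ± 15.3 in QCM and 19.0% ± 2.58 in SCM (SD, n = 3), and the exact permutation test (two-sided) gave p = 0.7, where the smallest possible is 0.1. The log2 ratio from edgeR over the 15 clusters was -0.47 ± 0.46 (SE), with an adjusted p of 0.825. It was 0.10 without QCM replicate 1.

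Depth and ribosomal protein share of the cluster also overlapped between the media. The median UMIs per cluster 1 nucleus averaged 3720 ± 3700 in QCM and 1498 ± 558 in SCM (SD, n = 3, exact permutation p = 0.5). The difference of 2222 UMIs rested on QCM replicate 1, without which it was 91.3 UMIs. The ribosomal protein share of cluster 1 averaged 15.1% ± 6.29 in QCM and 8.51% ± 3.13 in SCM (exact permutation p = 0.3), and 9.03% ± 3.71 against 4.62% ± 2.35 in the other nuclei. Over the 3 exact permutation tests of cluster size, depth and ribosomal protein share, each Benjamini-Hochberg adjusted p was 0.7. By replicate number, the ribosomal protein share was lower in SCM in all 3 same-numbered pairs, in cluster 1 and in the other nuclei. For cluster 1 an exact sign-flip test over these pairs gave p = 0.25, the smallest that 3 pairs allow. Whether the numbers pair the samples is not given in the labels.

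No gene of cluster 1 was called between SCM and QCM. UMI counts were summed per sample over cluster 1, and 12455 genes were tested with the quasi-likelihood test of edgeR. At an adjusted p under 0.05 it called 0 genes (0%), and the smallest adjusted p was 0.674. At an unadjusted p under 0.05, 104 genes were higher in SCM (0.835% of those tested) and 720 lower (5.78%). DESeq2 and voom with limma also called 0 genes, with 759 and 484 at an unadjusted p under 0.05. With library size alone in place of TMM scaling the split at that p was 201 higher and 202 lower, and the median log2 ratio of all genes moved from -0.01 to 0.23. Low-count genes left in the fit changed the number called to 273, of which 262 were lower in SCM. In simulated data with this design the test recovered 5.05% of genes changed 2-fold and 70.8% of genes changed 4-fold. The recovery in the real samples was not tested, and these shares do not measure it. In the real samples Apoa4 had a log2 ratio of SCM to QCM of -3.03 ± 1.14 (SE) and was not called (edgeR adjusted p = 0.674).

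The 6 labelled markers had lower estimates in SCM, and none was called with the low-count filter. Without that filter edgeR called Apoc3, Apoa4, Spink1, Gsta2 and Defa17 lower (adjusted p from 3.02e-10 to 0.0013), but not Reg3b (0.0654). The values given next are with the filter. Apoa4 had a log2 ratio of SCM to QCM of -3.03 ± 1.14 (SE; edgeR adjusted p = 0.674). Its levels overlapped between media, since QCM replicate 2 lay below all 3 SCM samples. Apoc3 had -2.90 ± 1.02 and Gsta2 -2.69 ± 0.95, both with an adjusted p of 0.674 in edgeR. The median over the 6 markers was -2.65, and -0.40 without QCM replicate 1. Gsta2 was the 1 marker without overlap, at 32.5, 4.41 and 6.03 CPM in QCM against 0, 4.29 and 2.67 CPM in SCM. The nearest values, 4.41 and 4.29 CPM, are almost equal, and the 0 is of SCM replicate 1, with 161906 UMIs in cluster 1. Of the genes tested, 3.49% were lower in SCM without overlap. Adding each sample's ribosomal protein share to the fit gave a median over the 6 markers of 0.65.

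Groups of mature genes had estimates on the same side. Of 17 enterocyte markers tested, 9 were lower at an unadjusted p under 0.05, with a median log2 ratio of -1.30. Fabp1 was at 2176, 280.0 and 1476 CPM in QCM and at 154.4, 249.7 and 872 CPM in SCM, with a ratio of -1.99 ± 0.87 (SE). For 9 Paneth markers the median was -1.64, with 5 lower at that p. The 8 goblet markers had a median of -1.39 with 6 lower, and the 13 enteroendocrine markers one of -1.08 with 7 lower, against 5.78% of all genes. Without QCM replicate 1 these medians were -0.15, -0.35, -0.60 and -1.12, with 0, 0, 2 and 9 genes at that p, where 170 of all 12569 genes had one. With the ribosomal protein share as covariate they were 0.21, 0.20, -0.08 and -0.63, so the sign turned for enterocyte and Paneth markers. Without SCM replicate 2 the counts of the 4 lists were 2, 2, 6 and 5, where 123 of all 13533 genes had such a p. Without SCM replicate 1 they were 1, 3, 4 and 7, where 451 of all 13379 genes had one. With voom the counts of the 4 lists were 1, 2, 1 and 6 and the medians -0.71, -0.87, -0.79 and -0.89, and with library size alone the counts were 8, 5, 4 and 5. Chgb, a granin of hormone-secreting cells, was at 171, 84.2 and 152 CPM in QCM and at 37.1, 74.5 and 73.3 CPM in SCM. Its groups did not overlap, and the log2 ratio was -1.38 ± 0.42 (SE; edgeR adjusted p = 0.674). Of all genes tested, 3.49% were lower in SCM without overlap.

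Ribosomal protein and oxidative phosphorylation genes had lower estimates in SCM too, and none was called. The 80 ribosomal protein genes tested had a median log2 ratio of SCM to QCM of -1.19, with 9 lower at an unadjusted p under 0.05. The 83 oxidative phosphorylation genes had a median of -1.19 as well, with 56 lower, where 5.78% of all genes were. With library size alone the medians were -0.83 and -0.82, and 1 and 20 genes had such a p. DESeq2 gave 57 and 65 such genes, and voom 0 and 10. Over all 12455 genes, 403, 759 and 484 had such a p with library size alone, DESeq2 and voom. Without QCM replicate 1 the medians were -0.72 and -0.61, with 0 and 7 genes at that p (170 of all 12569), and without SCM replicate 2 there were 0 and 5 (123 of all 13533). With the ribosomal protein share as covariate the oxidative phosphorylation median was -0.03 and no gene of that list had such a p. Only 72 of all 12455 genes had one in that fit. For the ribosomal protein genes that fit says nothing, since the covariate is their own sum.

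Stem, fetal and YAP lists had estimates of the other sign or near 0. The 14 stem markers had a median log2 ratio of 0.19, with 1 gene, Hmgb2, lower and none higher at an unadjusted p under 0.05. The 10 fetal and regenerative markers tested had a median of 0.59, with 3 higher and 1 lower, and the 10 YAP targets had one of 0.64 with 3 higher, against 0.835% of all genes. Library size alone, the covariate and each of DESeq2 and voom left the fetal and YAP medians above 0, as did leaving out QCM replicate 1. Without SCM replicate 2 they were 0.32 and 0.25, and 0 genes of either list had an unadjusted p under 0.05. Clu, clusterin, a marker of regenerating epithelium, was at 54.0, 16.3 and 29.3 CPM in QCM and at 135.9, 244 and 74.0 CPM in SCM. Its groups did not overlap, and the log2 ratio was 1.77 ± 0.57 (SE; edgeR adjusted p = 0.674). Of all genes tested, 5.65% were higher in SCM without overlap.

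The genes with the smallest unadjusted p are named, although none was called with the low-count filter. Higher estimates in SCM were found for Ano1, Epha4, Tnfaip8, Ldlrad4 and Clu. Ano1, a chloride channel, had a log2 ratio of 1.88 ± 0.45 (SE; edgeR adjusted p = 0.674), at 5.11, 14.1 and 12.4 CPM in QCM and 12.4, 65.4 and 35.9 CPM in SCM, so the groups overlapped. Epha4, an ephrin receptor, was between 10.0 and 24.7 CPM in QCM and between 30.9 and 49.8 CPM in SCM, without overlap. Tnfaip8 was between 30.1 and 42.8 CPM in QCM and between 72.0 and 86.5 CPM in SCM, again without overlap. Of the genes tested, 5.65% were higher in SCM without overlap, and the choice by a small p favours such genes.

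Lower estimates were found for Smim24, Cth, Cldn3, Mydgf and Ssr4. Smim24, a small membrane protein, was at 350, 179 and 261 CPM in QCM and at 129.7, 98.6 and 133 CPM in SCM (log2 ratio -1.48 ± 0.40, SE; edgeR adjusted p = 0.674, DESeq2 adjusted p = 0.0906). Cth, cystathionine gamma-lyase of cysteine synthesis, was between 83.3 and 102.6 CPM in QCM and between 43.2 and 58.2 CPM in SCM. Cldn3, a claudin of tight junctions, was between 220 and 363 CPM in QCM and between 103 and 163 CPM in SCM. Ssr4, of the translocon complex through which proteins enter the endoplasmic reticulum, was between 256 and 452 CPM in QCM and between 123.5 and 207 CPM in SCM. The groups of these 4 genes did not overlap, and 3.49% of all genes tested were lower in SCM without overlap. These 4 genes were chosen for a small p in these same samples, which favours such a gap.

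**Figure D5:**
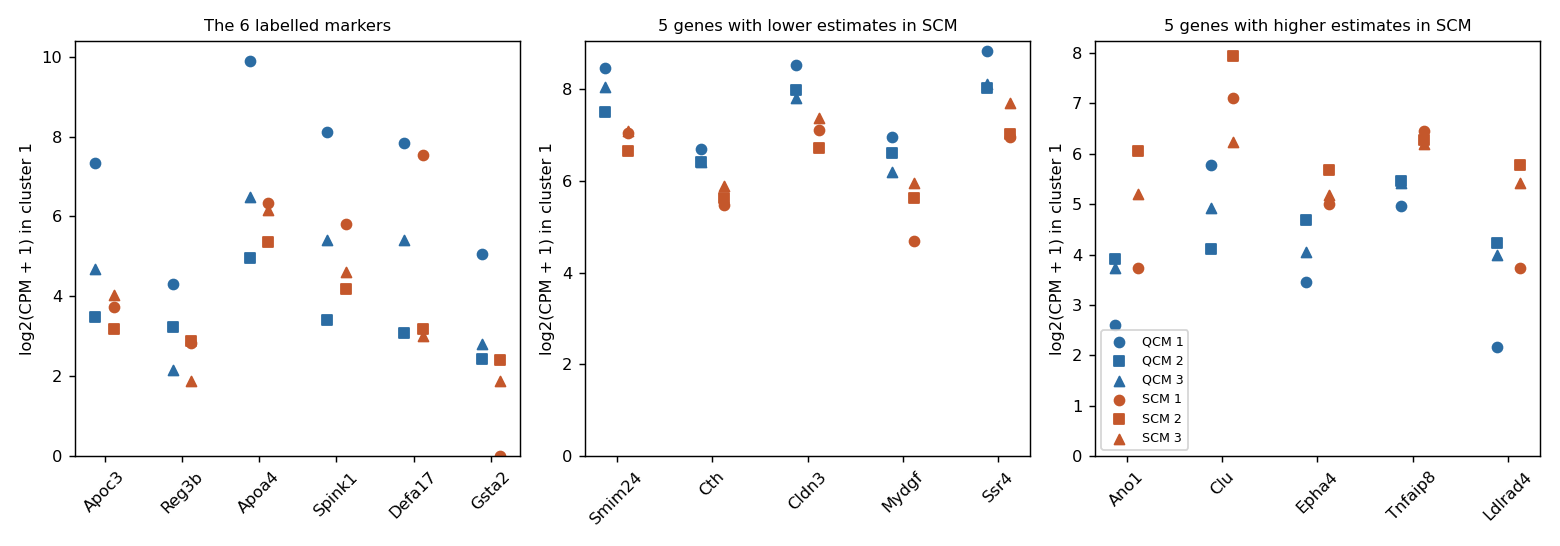
Level in cluster 1, as log2 of CPM plus 1, of the 6 labelled markers and of the 10 genes with the smallest unadjusted p for SCM against QCM (5 with lower and 5 with higher estimates in SCM). Points are the 6 samples, with QCM in blue and SCM in orange. The labelled markers are highest in QCM replicate 1 and, except Gsta2, overlap between media. The 5 genes with lower estimates do not overlap, and 3.49% of all genes tested were lower in SCM without overlap. These 5 genes were chosen by their p in these same samples. No gene was called with the low-count filter.

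The last comparison asked whether the SCM to QCM ratio of a gene differed between cluster 1 and the other nuclei of the same samples. The other nuclei are a mix of clusters whose shares of nuclei may differ between media. The part of that mix in the differences given next was not tested. The edgeR fit over 17193 genes called 0 (0%), and no adjusted p was under 0.62. Without adjustment, p was under 0.05 for 297 genes with a higher ratio in cluster 1 (1.73%) and for 872 with a lower one (5.07%). With library size alone these were 1111 and 64 genes, and the median over all genes moved from -0.09 to 0.19, so the direction of the whole rests on the scaling. In simulated data this test recovered 17% of 4-fold differences and 2% of 2-fold ones. Cluster 1 and the other nuclei were simulated independently, without variation shared within a sample. These shares therefore do not measure the recovery in the real samples.

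The genes named for a lower ratio in cluster 1 were Anxa1, Ahnak and Plec. Anxa1, annexin A1, was at 20.7, 11.9 and 8.62 CPM in cluster 1 of QCM and at 18.5, 48.8 and 28.1 CPM in SCM, and in the other nuclei at 14.4, 5.27 and 7.84 against 45.3, 76.8 and 28.1 CPM. The difference of the log2 ratios was -1.29 ± 0.28 (SE; edgeR adjusted p = 0.62), and it was called without QCM replicate 2 (0.0128) and without SCM replicate 3 (0.0268). Ahnak, a large scaffold protein, had -1.01 ± 0.23 (edgeR adjusted p = 0.712). It was called without QCM replicate 1 (adjusted p = 0.0479), without QCM replicate 2 (0.000813) and without SCM replicate 3 (0.00652). Plec, the cytoskeletal linker plectin, had -0.91 ± 0.23 (edgeR adjusted p = 0.722), and was called without QCM replicate 2 (0.0064) and without SCM replicate 3 (0.0397). Without the deepest 6% of nuclei in each sample the differences were -0.59 for Anxa1, -0.32 for Ahnak and -0.17 for Plec, none of them called. Without SCM replicate 2 the difference of Ahnak was -0.61 and that of Plec -0.53. The 3 genes named in the other direction were the antisense or noncoding genes Man2c1os and Pard3bos3 and the ciliary gene Cfap52, at 0.74 ± 0.23, 0.83 ± 0.27 and 0.65 ± 0.23 (edgeR adjusted p = 0.722 each). Without QCM replicate 2, Man2c1os and Cfap52 were called as well (edgeR adjusted p = 0.0225 and 0.0391).

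Without QCM replicate 2 the test called 87 genes, of which 39 had a higher and 48 a lower ratio in cluster 1. Of the 12 goblet markers tested, 6 had a lower ratio in cluster 1 at an unadjusted p under 0.05, against 5.07% of all genes, and the median difference was -0.69. With library size alone 1 of them had such a p, where 64 of all 17193 genes did, and the median was -0.39. Without QCM replicate 1 these were 2 genes and -0.19, and without QCM replicate 2 they were 10 genes and -0.89. In these 2 fits, 359 of all 15376 genes and 1889 of all 18079 genes had a lower ratio at that p. Of the 11 fetal and regenerative markers, 6 had a lower ratio at that p, with a median of -0.57. With library size alone 3 had such a p (64 of all 17193 genes), and the median was -0.26. Without SCM replicate 2 these were 3 genes and -0.37, where 366 of all 17943 genes had a lower ratio at that p. The 80 ribosomal protein genes had a median of -0.11, or 0.17 with library size alone, and none at that p, so that no difference in their SCM to QCM ratio between cluster 1 and the other nuclei was detectable.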

How the data were processed

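Nuclei were isolated from frozen organoids by the study and sequenced on the 10x Chromium droplet platform (3′ kit). Per the methods, the authors aligned reads to mm10 with Cell Ranger (version 2.1.1 per the submitters' processing notes), and removed nuclei more than 3 mean absolute deviations above their sample in mitochondrial share, or below it in reads or features. The deposited per-sample matrices hold UMI counts of 31319 genes. The deposited table of nuclei gives the cluster number, the sample, and the mitochondrial share as a fraction, which is printed here as a percent. Mitochondrial genes themselves were not analysed here. Symbols and gene spans came from GENCODE M21 (GRCm38), and start sites from RefSeq (GRCm38.p6).

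No further filter on nuclei was applied. No doublet caller was run, and the deepest 6% of nuclei of each sample were left out as an alternative. UMI counts were summed per sample over cluster 1 and over the other nuclei. Tests between media were edgeR 4.0.16 quasi-likelihood fits (TMM, filterByExpr with a minimum count of 10, Benjamini-Hochberg adjustment over all genes tested, threshold 0.05) in R 4.3.3, on all 6 samples. DESeq2 1.42.0 and voom with limma 3.58.1 were alternatives. The test of the ratio used the sample as a block. Nuclei per cluster were tested with edgeR over 15 clusters. Ratios to the other nuclei used CPM plus 1 and had no test. Tables were made in Python 3.11.15. The scripts were tested on simulated data.

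Genes named were the 6 labelled markers, the 15 highest and 10 lowest by mean ratio with at least 50 CPM and a ratio of one sign in all samples, up to 4 members of each list with the highest level, and, where fewer than 5 genes were called, the 5 (for the test of the ratio, 3) with the smallest unadjusted p in each direction at 20 CPM or more. Members, lists and tests were chosen with earlier results of these data known. Leaving out nuclei with shared barcodes was added after seeing the data.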

Additional observations from a re-analysis of the deposited data

How the results depend on the processing

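Of the results that answer a comparison, 62 values under an alternative kept their side of the threshold and their direction, or stayed within 1.5 times or 1 SD. The share of nuclei in cluster 1 was lower in SCM in all fits but the one without QCM replicate 1, where the log2 ratio was 0.10 (without other replicates -0.78 to -0.36). The median depth of cluster 1 differed by -3415 to -91.3 UMIs, and the ribosomal protein share by -10.05 to -3.87 percentage points, when samples were left out in turn. Within cluster 1 the number of genes called was 0 in all settings but the one without a low-count filter, where it was 273. The test of the ratio called 0 to 87 genes when samples were left out in turn, 2 without the deepest 6% of nuclei (Pou2f3 and Fcgbp, named after their values were seen) and 0 without nuclei with shared barcodes, with library size alone or without a low-count filter. With the replicate block the ratio test called 1 gene (Ahnak, adjusted p = 0.0476), and 0 genes were called within cluster 1. The block changed no other call, but the log2 ratios of SCM to QCM of the labelled markers became smaller in size. They were -1.17 for Apoa4 (-3.03 without the block), -1.36 for Apoc3 (-2.90) and -1.03 for Spink1 (-2.61). For Gsta2, Defa17 and Reg3b they were -1.34 (-2.69), -1.41 (-1.86) and -0.75 (-1.64). Deviations of same-numbered samples correlated at 0.19, 0.33 and -0.01, and those of differently numbered samples at -0.30 to 0.04. The labels do not say whether the numbers pair the samples. Apart from the replicate block, the fits between media did not pair them. When the ribosomal protein share was a covariate, the log2 ratio of SCM to QCM changed sign for Apoc3 (0.27), Apoa4 (1.03), Spink1 (1.14) and Defa17 (1.59), and the cause was not tested. Without nuclei with shared barcodes the median log2 ratio of the labelled markers to the other nuclei was 0.91, against 0.85 with all nuclei. Depth limits SCM replicate 1, where cluster 1 rests on 86 nuclei.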

Other observations

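Signal genes outside the comparisons above were also described in cluster 1. Of all measured genes, 11.4% were above and 36.9% below the other nuclei in all 6 samples, and several of the counts given next are near or under those shares. Of 9 measured interferon and antigen presentation genes, 3 were above the other nuclei in all 6 samples and 1 was below. Bst2, an antiviral membrane protein, had a log2 ratio of 1.26 ± 0.50 (SD, n = 6), and B2m, the light chain of class I molecules, had 0.72 ± 0.22. Of 12 measured p53 and arrest genes, 2 were above and 3 below, with Bax, a promoter of cell death, at 0.51 ± 0.06 and Mdm2, the ligase that degrades p53, at -0.45 ± 0.20. Of 12 measured immediate early genes, 2 were above and none below, with Jund at 0.39 ± 0.16. Of 9 measured NF-kB and cytokine response genes, 2 were above and 4 below, with Nfkbia, an inhibitor of NF-kB, at 0.33 ± 0.21 and Nfkb1 at -0.46 ± 0.27. Between SCM and QCM no gene of these lists was called in cluster 1, and the medians of the 4 lists were -0.47, -0.14, -0.44 and 0.24 in that order.

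Of 34 measured xenobiotic and glutathione genes, 12 were above the other nuclei in all 6 samples and 2 were below. Gsta1 had a log2 ratio of 0.58 ± 0.14 and Mgst1, a microsomal glutathione transferase, one of 0.51 ± 0.17 (SD, n = 6). Of 11 cycling markers, 4 were above and 2 below, with Stmn1, a tubulin-binding protein, at 0.50 ± 0.12 and Cenpe, a kinetochore motor, at -0.37 ± 0.13.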
